A study of Mus musculus with 2 samples.

Results

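The 10 genes described here encode the enzymes that make serine (*Phgdh*, *Psat1*, *Psph*), those that pass its carbon into the folate cycle in the cytosol (*Shmt1*, *Mthfd1*) or the mitochondrion (*Shmt2*, *Mthfd2*, *Mthfd1l*, *Aldh1l2*), and asparagine synthetase (*Asns*). They were chosen by name, from the gene name or the current symbol of every probe on the array, and they are 10 of 27790 named genes. The choice was made with earlier results of these data known. They carried 16 probes, of which 15 were well above background in both cell lines on both arrays. The lines were B16F1-GFP-D and B16F1-GFP-M, both grown untreated in DMEM with serum and antibiotics. B16F1 is a murine melanoma line, and both derivatives express GFP. B16F1-GFP-M is the maternal line, and a figure legend of the study calls both lines clonal. B16F1-GFP-D, described by the study as dormant, was grown from a single colony of GFP-positive cells sorted from pooled organs of challenged mice that had stayed free of tumours, control and immunised animals together, so it is 1 clone. Total RNA of both lines was hybridised to 2 two-colour Agilent arrays with the dyes swapped. Array 1 held B16F1-GFP-D in Cy3 and array 2 held it in Cy5.

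No label names separate cultures or extracts, so the 2 arrays counted as 1 replicate of each line and no test between the lines was possible. Every log2 ratio below has B16F1-GFP-D as the numerator, so that values below 0 mean less mRNA in B16F1-GFP-D. It comes from a gene's brightest probe and is given for each array, and the SD is the spread between the 2 arrays. That spread is counted as technical and includes any effect of dye orientation. A gene is called higher or lower where both arrays put the difference at 2-fold or more with one sign. Between 44.1% and 60.7% of spots were well above background in a line on an array, and 12540 genes were detected, meaning well above background in at least 1 line on both arrays. The pooled SD between arrays over those genes was 0.15. Lines are said to overlap unless both intensities of 1 line lie above both of the other, taken across arrays. Lines without overlap have ratios of 1 sign on both arrays. That is common: 42.8% of detected genes were below 0 on both arrays and 41.0% above 0. Lack of overlap is therefore not read as a result. All 9 melanocyte markers were well above background in both lines, with a summed normalized intensity of 328928 and 383916 in B16F1-GFP-D and of 413351 and 369050 in B16F1-GFP-M. Of markers of other cells, those well above background on both arrays numbered 3 of 9 for fibroblasts, 2 of 9 for leukocytes and 1 of 5 for endothelium in B16F1-GFP-D, the line grown from mouse organs, and 1, 0 and 0 in B16F1-GFP-M. For 6 liver and brain markers the numbers were 1 and 2. The summed intensity was 746 and 783 in B16F1-GFP-D against 698 and 728 in B16F1-GFP-M for the fibroblast markers, 767 and 736 against 763 and 712 for the leukocyte markers, and 447 and 443 against 378 and 385 for the endothelial markers. *Ptprc*, *Pecam1*, *Cdh5*, *Pdgfra* and *Dcn* were not detected, and no marker was called between the lines by this rule. Of the markers of other cells, *Pdgfrb* (0.98 and 0.69), *Vwf* (0.74 and 0.70), *Cd68* (0.51 and 0.36) and *Col1a1* (0.38 and 0.41) were higher in B16F1-GFP-D. All 4 were dim, and the scanner software's ratios, which add no offset, were 4.10, 1.81, 1.68 and 1.97. *Col1a2* (-0.33 and -0.33) and *Gfap* (-0.14 and -0.05) were lower on both arrays. The part of such cells in the results was not tested.

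Serine is built from a glycolytic intermediate in 3 steps, catalysed by phosphoglycerate dehydrogenase, phosphoserine aminotransferase and phosphoserine phosphatase. Serine hydroxymethyltransferases then split it into glycine and a carbon unit carried by folate, which is used for purines, thymidylate and methionine. Most proliferating cells run this cycle through the mitochondrion, release formate there and take it up again in the cytosol. Asparagine synthetase makes asparagine from aspartate and glutamine. In many mammalian cells, the genes for serine synthesis, for the mitochondrial folate enzymes and for asparagine synthetase are known targets of ATF4, a transcription factor of the amino acid and stress response.

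Of the 10 enzymes, *Phgdh*, *Psph*, *Aldh1l2* and *Asns* were called lower in B16F1-GFP-D, *Mthfd1* was called higher, and 5 were not called. All 10 were detected. Over all detected genes, 1.95% were called lower, 3.09% were called higher and 5.03% were called in either direction. Because the enzymes were chosen with earlier results known, the comparison with all genes does not give an unbiased excess. The median log2 ratio of the 10 enzymes was -0.72, against -0.01 for all detected genes, and 6 of the 10 were below 0 on both arrays, as were 42.8% of all detected genes. Another 3 were above 0 on both, as were 41.0% of all detected genes. The 4 lower genes, *Mthfd1* and the uncalled *Mthfd2* and *Shmt1* lay outside the range from -0.77 to 0.89 that held all but the lowest 5% and the highest 5% of genes. Centring each array on its median in place of loess gave 64 calls over all genes in place of 631 and, of the 5 here, left only *Aldh1l2*, while the mean ratios were -1.01 for *Phgdh*, -1.61 for *Psph*, -1.20 for *Asns* and 1.32 for *Mthfd1*. In RNA from whole cultures, a lower level in each cell and fewer cells with the transcript cannot be told apart.

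**Figure D1:**
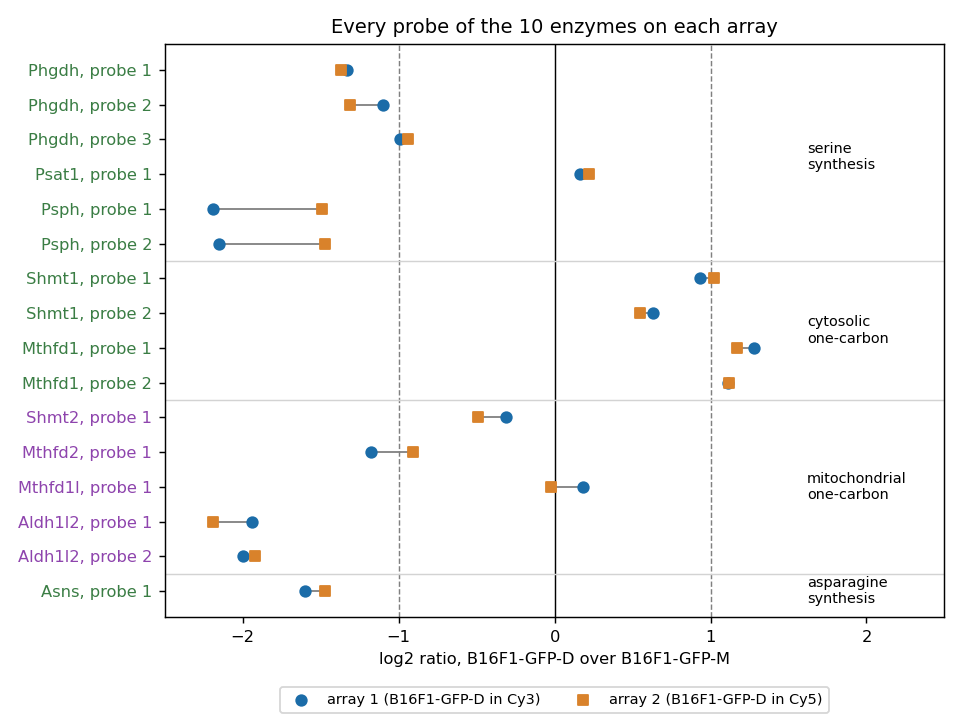
Log2 ratio (B16F1-GFP-D against B16F1-GFP-M) for each of the 16 probes of the 10 enzymes, with array 1 as circles, array 2 as squares, and dashed lines at 2-fold. Gene names are green for cytosolic and purple for mitochondrial enzymes. Probes of *Psph* and *Aldh1l2* lay between -2.19 and -1.47, and those of *Mthfd1*, farthest to the right, between 1.11 and 1.28.

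The first and last enzymes of serine synthesis were lower in B16F1-GFP-D, and the middle one was not called. *Phgdh*, which encodes the dehydrogenase that commits the glycolytic carbon to serine, had a log2 intensity of 13.67 and 13.83 in B16F1-GFP-D and of 15.01 and 15.20 in B16F1-GFP-M, on arrays 1 and 2. Both values of B16F1-GFP-D thus lay below both of B16F1-GFP-M. The log2 ratios were -1.33 and -1.37, a mean of -1.35 ± 0.02 (SD), or 2.55-fold lower. This probe lies in mm9 at chr3:98117098-98117157, and the other 2 *Phgdh* probes gave means of -1.20 and -0.96, the last of them short of 2-fold on both arrays. The 594 detected genes of chromosome 3 had a median log2 ratio of -0.15.

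*Psph*, which encodes the phosphatase that releases free serine, had a log2 intensity of 11.06 and 11.51 in B16F1-GFP-D and of 13.25 and 13.00 in B16F1-GFP-M. The lines did not overlap, and the log2 ratios were -2.19 and -1.49. The mean of -1.84 ± 0.50 (SD), 3.57-fold lower, had the widest spread between arrays of the 10 enzymes. The probe lies in mm9 at chr5:130271443-130271502. The second *Psph* probe shares 40 of its 60 bases with the first and gave -2.15 and -1.47, so the same difference between dye orientations was seen on both.

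*Psat1*, which encodes the aminotransferase between them, had a log2 intensity of 11.27 and 11.11 in B16F1-GFP-D and of 11.12 and 10.89 in B16F1-GFP-M on its only probe, at chr19:15979970-15980029 in mm9. The lines overlapped across arrays, while within each array B16F1-GFP-D was slightly higher. The log2 ratios of 0.16 and 0.22 averaged 0.19 ± 0.04 (SD). Measured within arrays, the log2 ratio of *Phgdh* minus that of *Psat1* was -1.49 and -1.59, and that of *Psph* minus *Psat1* was -2.34 and -1.71. The 3 genes of one linear pathway therefore differed unequally between the lines.

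The folate enzymes of the cytosol and of the mitochondrion come in paralogous pairs, and the comparison of compartments sets the probe of one paralogue beside that of the other. The stretches below are 30 of the 60 bases of the brightest probe of each, 5′ to 3′, with capitals for the longest run of bases that the 2 probes of a pair share. In both pairs that run was 6 bases long. Whether a probe also matches the transcript of its paralogue was not tested.

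*Shmt1*: ttgacatcccGAGGACttttggaagaagac
*Shmt2*: ttgatgaacgttGAGGACagttgaggacac
*Mthfd1*: ttatgatattgaTTTGGAtcctgaaacgga
*Mthfd1l*: aatgcttccgtcTTTGGAgttttctctttc

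In the cytosol, *Mthfd1* was called higher in B16F1-GFP-D and *Shmt1* stayed just short of it. *Mthfd1* encodes the trifunctional enzyme that charges folate with formate and interconverts its one-carbon forms. Its log2 intensity was 10.80 and 10.55 in B16F1-GFP-D and 9.53 and 9.38 in B16F1-GFP-M on the probe at chr12:77418622-77418681 in mm9. Each B16F1-GFP-D value exceeded each B16F1-GFP-M value, the ratios were 1.28 and 1.17, and the mean was 1.23 ± 0.08 (SD), 2.34-fold higher. The second *Mthfd1* probe gave 1.11 and 1.12.

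*Shmt1*, which encodes the cytosolic serine hydroxymethyltransferase, was dim. Its log2 intensity was 7.87 and 8.13 in B16F1-GFP-D and 6.94 and 7.11 in B16F1-GFP-M on the probe at chr11:60603099-60603158 in mm9, without overlap. The ratios were 0.93 and 1.02, a mean of 0.98 ± 0.06 (SD), or 1.97-fold higher. It was not called, because array 1 fell just short of 2-fold, and the ratio from the scanner software, which adds no offset to the signals, was 1.70. The signal was 6.56 and 6.05 times the local background in B16F1-GFP-D and 2.84 and 3.46 times in B16F1-GFP-M, and the second probe, the only one of the 16 not well above background throughout, gave 0.63 and 0.55.

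In the mitochondrion, the 4 enzymes ranged from a 4.18-fold lower level to almost no difference. *Aldh1l2*, which encodes the dehydrogenase that oxidises formyl-folate to carbon dioxide and makes NADPH, had a log2 intensity of 7.59 and 7.09 in B16F1-GFP-D and of 9.53 and 9.28 in B16F1-GFP-M. The lines did not overlap, and the ratios were -1.94 and -2.19, with a mean of -2.06 ± 0.18 (SD). This probe lies in mm9 at chr10:82950571-82950630. The second probe shares 0 bases with it and gave a mean of -1.96. In B16F1-GFP-D the signal was 4.77 and 3.22 times the local background, against 17.3 and 16.9 times in B16F1-GFP-M, and the scanner software's ratio was -2.79.

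*Mthfd2*, which encodes the mitochondrial dehydrogenase and cyclohydrolase, had a log2 intensity of 10.81 on both arrays in B16F1-GFP-D and of 11.99 and 11.72 in B16F1-GFP-M, at chr6:83256518-83256577 in mm9. The lines did not overlap. Its ratios of -1.18 and -0.91 averaged -1.05 ± 0.19 (SD), and it was not called because array 2 stayed under 2-fold. *Shmt2*, which encodes the mitochondrial serine hydroxymethyltransferase, had a log2 intensity of 11.94 and 11.95 in B16F1-GFP-D and of 12.25 and 12.44 in B16F1-GFP-M, at chr10:126954811-126954870 in mm9. Its ratios were -0.31 and -0.49, a mean of -0.40 ± 0.12 (SD), also without overlap but not called.

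*Mthfd1l* encodes the mitochondrial enzyme that releases formate. Its log2 intensity was 12.70 and 12.60 in B16F1-GFP-D and 12.51 and 12.62 in B16F1-GFP-M, on the probe at chr10:6190563-6190622 in mm9. The lines overlapped, and the ratios of 0.18 and -0.02 had opposite signs on the 2 arrays.

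**Figure D2:**
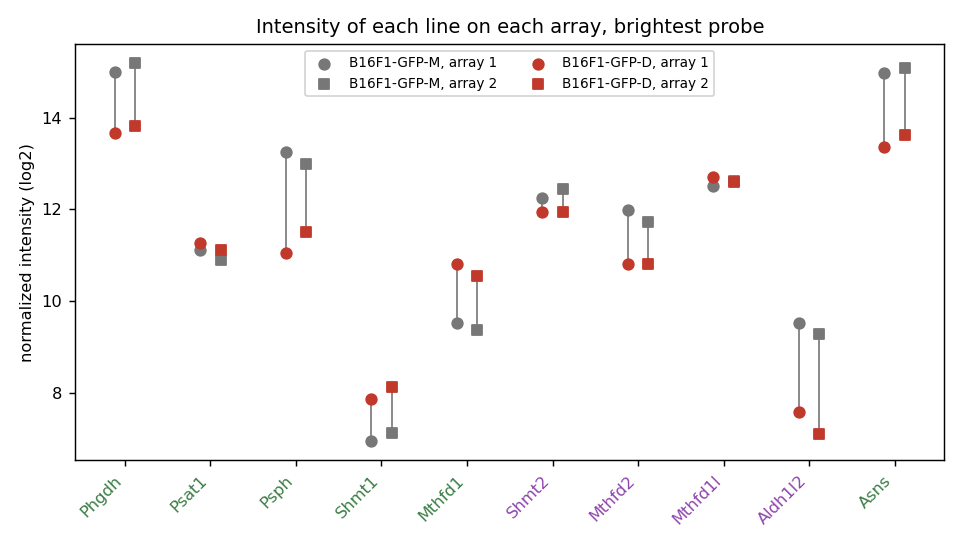
Normalized log2 intensity of each line on each array for the brightest probe of the 10 enzymes, with B16F1-GFP-D in red, B16F1-GFP-M in grey, and a line joining the values of one array. Heights can be compared within a gene only. Across arrays, the lines overlapped for *Psat1* and *Mthfd1l*. The 2 values of a line are counted as technical. The share of all detected genes whose lines lay apart was not counted, but 42.8% were below 0 on both arrays and 41.0% above 0.

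Paralogue by paralogue, the mitochondrial enzyme had the lower ratio. The log2 ratio of *Shmt2* minus that of *Shmt1* was -1.25 on array 1 and -1.51 on array 2, a mean of -1.38 ± 0.19 (SD). For *Mthfd2* against *Mthfd1*, which share the dehydrogenase and cyclohydrolase steps, the difference was -2.46 and -2.08, a mean of -2.27 ± 0.26 (SD). For *Mthfd1l* against *Mthfd1*, which share the formate step, it was -1.09 and -1.19, with a mean of -1.14 ± 0.07 (SD). These SDs give the spread between 2 arrays of opposite dye orientation, counted as technical, and not one known to be between cultures. With 1 replicate of each line none of the differences has a test.

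Compartment alone did not separate the 10 enzymes. The 6 cytosolic enzymes had a median log2 ratio of -0.58, ranging from -1.84 to 1.23, with 3 called lower and 1 called higher. The 4 mitochondrial enzymes had a median of -0.72, ranging from -2.06 to 0.08, with 1 called lower. The difference of the medians was -0.16 and -0.13 on the 2 arrays, and the ranges of the compartments overlapped from -1.84 to 0.08. Sorted by role, the 3 serine synthesis enzymes had a median of -1.35, the 4 mitochondrial folate enzymes of -0.72 and the 2 cytosolic folate enzymes of 1.10. The mitochondrial folate median minus the cytosolic folate one was -1.85 and -1.80 on the 2 arrays. The other 4 cytosolic enzymes, those of serine and asparagine synthesis, had a median of -1.44.

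*Asns* had a log2 intensity of 13.37 and 13.62 in B16F1-GFP-D and of 14.97 and 15.08 in B16F1-GFP-M on its only probe, at chr6:7625194-7625253 in mm9. Both B16F1-GFP-D values lay below both B16F1-GFP-M values. The ratios were -1.60 and -1.47, a mean of -1.53 ± 0.10 (SD), or 2.90-fold lower. The *Asns* promoter is a textbook site of amino acid control through a C/EBP-ATF response element, which ATF4 binds, and is shown for that reason. It covers the 150 bases before the gene start in RefSeq, GRCm38.p6, chr6:7693210-7693359, minus strand, with capitals for a match to TGATGNAA, which starts 23 bases before the gene start.

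*Asns*: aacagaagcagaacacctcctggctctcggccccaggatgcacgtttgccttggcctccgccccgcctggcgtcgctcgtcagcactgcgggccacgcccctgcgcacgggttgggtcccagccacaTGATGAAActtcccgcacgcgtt

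Searched on both strands from 250 bases before to 50 after the start, TGATGNAA was in 1304 of 32851 RefSeq promoters, or 3.97%. Among the 10 promoters listed for 9 of the enzymes, it was in 1, that of *Asns*. The E-box CACGTG was in 7.15% of all promoters and in 0 of the 10. *Aldh1l2* is not in the table. The matches describe letters in these windows, and nothing in the arrays measured binding there.

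The enzymes called lower lay far from the middle of the distribution of all genes, as the 2-fold rule requires. Counted from the lowest mean ratio among 12540 detected genes, *Aldh1l2* was at position 24, *Psph* at 29, *Asns* at 68, *Phgdh* at 115 and *Mthfd2* at 264. Counted from the highest, *Mthfd1* was at 275 and *Shmt1* at 508. *Shmt2*, *Psat1* and *Mthfd1l* lay within the range from -0.77 to 0.89.

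**Figure D3:**
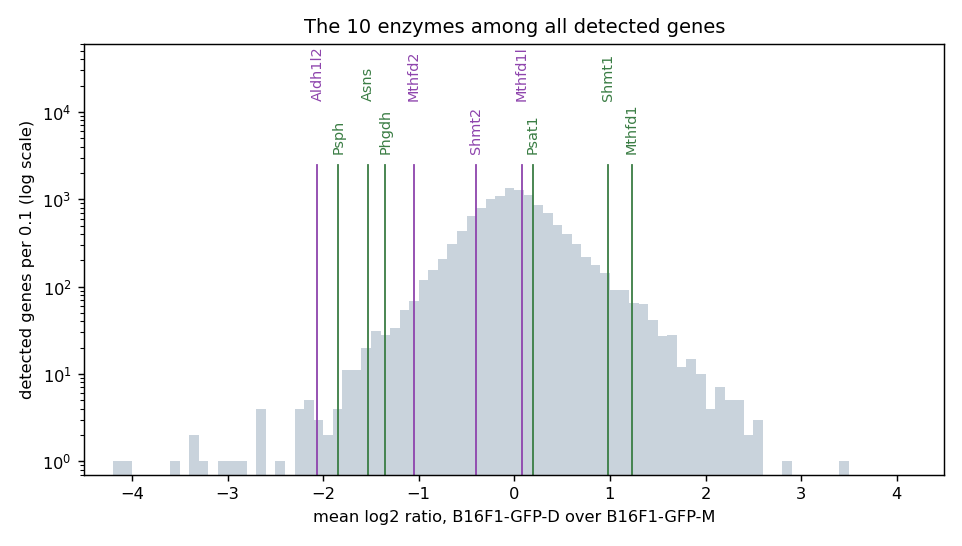
Number of detected genes, on a log scale, in steps of 0.1 of the mean log2 ratio (B16F1-GFP-D against B16F1-GFP-M), with vertical lines for the cytosolic (green) and mitochondrial (purple) enzymes. *Aldh1l2*, at -2.06, was the lowest of the 10 and *Mthfd1*, at 1.23, the highest.

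In the pathways around these enzymes, most genes were not called. Lists were taken for folate uptake and turnover, the methionine cycle and transsulfuration, the use of glycine and serine, and aspartate, glutamine and proline. They name 67 other genes, of which 66 were on the array and 53 were detected. Of these, 4 were called higher and 2 lower, which is 11.3% against 5.03% of all detected genes, and their median log2 ratio was 0.15. The lists too were chosen with earlier results of these data known.

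Among the 13 detected folate genes, with a median of -0.01, only *Tyms* was called. It encodes thymidylate synthase, which uses the one-carbon unit that folate carries, and its ratios were 1.45 and 1.36, although its 3 probes ranged from 0.06 to 1.41. *Aldh1l1*, the cytosolic counterpart of *Aldh1l2*, gave 0.32 and 0.33, against -1.94 and -2.19 for *Aldh1l2*. *Slc25a32*, the mitochondrial folate carrier, gave 0.04 and -0.07, and *Mthfd2l* was not detected. The 11 detected genes of glycine and serine use held 0 calls, and *Gldc*, a part of the glycine cleavage system, was not detected.

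Of the 11 detected genes of the methionine cycle and transsulfuration, *Cth*, which encodes the cystathionine lyase that makes cysteine, was called lower, with ratios of -1.98 and -2.26. *Amd1*, which encodes the decarboxylase that feeds polyamine synthesis, was called higher at 1.28 and 1.09, with probes from 0.21 to 1.19. Among the 18 genes of aspartate, glutamine and proline, *Pycr1* was called lower at -1.78 and -1.75. It encodes the last enzyme of proline synthesis, in the mitochondrion. *Got2*, the mitochondrial transaminase that makes aspartate, was called higher at 1.12 and 1.01, as was *Glul*, glutamine synthetase, at 1.01 and 1.30. Aspartate and glutamine are the substrates of *Asns*. *Asnsd1*, which shares a domain with asparagine synthetase, gave -0.25 and -0.26.

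The list of regulators held 0 calls among 7 detected genes, with a median of 0.21. *Atf4* gave -0.58 and -0.81, a mean of -0.70 that was lower on both arrays and short of 2-fold. These are mRNA levels, and the amount and activity of the ATF4 protein were not measured.

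**Figure D4:**
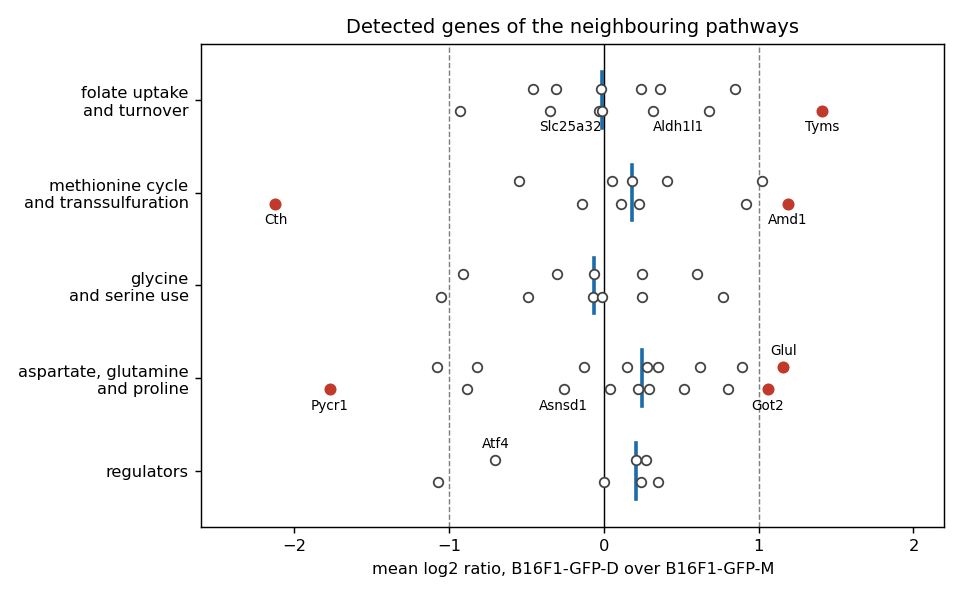
Mean log2 ratio (B16F1-GFP-D against B16F1-GFP-M) of every detected gene in the 4 pathway lists and the list of regulators, with filled points for genes called at 2-fold on each array, a bar at each list's median and dashed lines at 2-fold. List medians lay between -0.06 and 0.25, and *Cth* and *Pycr1* were the only points called to the left.

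Median centring left only *Aldh1l2* of the 5 calls. In the other alternatives the 5 calls were made each time, but several of these could not lose one. Looser rules (1.5-fold, 2-fold on the mean, either array alone, no filter on dim probes) keep every call by construction. Aquantile scaling left the enzymes' ratios unchanged. Their brightest probes were all well above background in both lines, so asking for that removed none. The deposited value table nearly repeats the scanner software's ratios. Calls could be lost only with median centring, the scanner software's ratios, no normexp offset, no background subtraction or the median of a gene's probes. *Shmt1* was added with no normexp offset, with no background subtraction and in the deposited value table. By the scanner software's own ratios, 6 enzymes were called, *Shmt1* and the same 5, beside 10.8% of all detected genes, and the 4 lower ones stood beside 4.76%. At 1.5-fold, 7 enzymes were called, *Shmt1*, *Mthfd2* and the same 5, beside 15.8% of all detected genes. Of those, 2 were higher and 5 lower, beside 8.76% and 7.03%. *Mthfd2* was also added where 2-fold was asked of the mean alone.

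**Figure D5:**
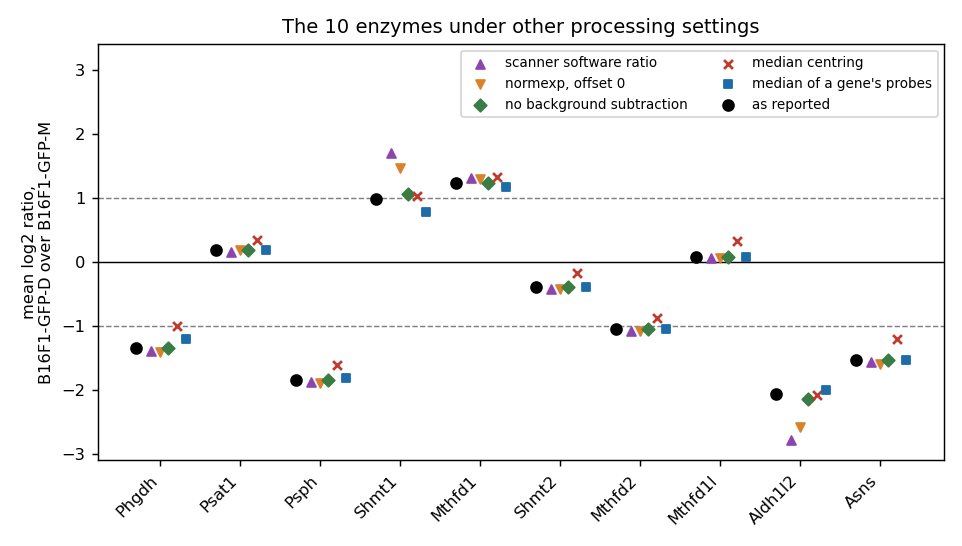
Mean log2 ratio (B16F1-GFP-D against B16F1-GFP-M) of the 10 enzymes as reported (black circles) and under 5 other settings, with dashed lines at 2-fold. The dim genes *Shmt1* and *Aldh1l2* moved most, reaching 1.70 and -2.79 in the scanner software's ratios, and no enzyme changed sign among the settings shown.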

How the data were processed

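Both lines' total RNA was compared on 2 two-colour Agilent arrays on 1 slide, scanned together with the dyes swapped. Per the file headers, the authors extracted the spot intensity values with Agilent Feature Extraction 10.7.3.1 for a design placed on mm9. The deposited value table holds log10 ratios that differ from the scanner files' log ratio by at most 0.005. Both of its columns have a median of 0. It served as an alternative.

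The deposited intensity values were corrected with normexp (offset 50) on mean signal and median local background and normalized by loess within arrays, control spots having weight 0, with limma 3.58.1 in R 4.3.3. Of 43379 spots, 143 and 176 outliers were left out. Spots of a probe were averaged, which left 41164 probes, and a gene took its brightest probe. Log2 intensities of a line are channel values after loess and Aquantile scaling. Of 28069 probes with a RefSeq accession, 27184 were named through the GRCm38.p6 table, used for names only. Calls needed a log2 size of 1 on each array. The script was tested on simulated data. The members, the gene lists and the rule for named genes (all 10 enzymes, called genes of the lists, direct counterparts of the enzymes and *Atf4*, of which some are not reported here) were chosen with earlier results of these data known. In all, 13 alternatives were tried. The number of arrays limits the precision.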

Additional observations from a re-analysis of the deposited data

How the results depend on the processing

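Against 631 genes called in all, 1979 were called at 1.5-fold, 64 with median centring, 1076 with no normexp offset, 1356 by the ratio of the scanner software and 1352 in the deposited value table, and 819 and 798 on 1 array alone. Of the 10 enzymes, 5 were called, against 1 with median centring and 6 on either array alone, where *Mthfd2* (array 1) or *Shmt1* (array 2) was added. The cytosolic median of -0.58 was -0.34 with median centring, -0.51 with probes of a gene summarised by their median, -0.61 with no offset, and -0.62 in both the scanner's ratios and the value table. The mitochondrial median of -0.72 was -0.53 with median centring and -0.76 with no offset, in the scanner's ratios and in the value table. The difference of -0.14 between them was -0.20 with median centring and -0.22 with probes summarised by their median. On 1 array alone these 3 values ranged from -0.59 to -0.57, from -0.75 to -0.70 and from -0.16 to -0.13. The differences involving the dim *Shmt1* moved more. *Shmt2* minus *Shmt1*, -1.38 as reported, was -1.19 with probes summarised by their median and -2.12 in the scanner's ratios. The mitochondrial minus the cytosolic folate median, -1.82 as reported, was -1.70 with probes summarised by their median and -2.26 in the scanner's ratios.

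Median centring left the median of all detected genes at -0.86 on array 1 and 1.03 on array 2, which by construction keeps few genes past 2-fold in the same direction on both. The sign of *Mthfd1l* turned, to -0.02, on array 2 alone, and the other 9 enzymes kept their sign in every alternative run. No paired analysis was possible because the 2 arrays hold 1 replicate per line, and the slide could not be used as a block because both arrays shared it. Ratios of dim genes (*Shmt1*, *Aldh1l2*) depend most on the offset. Effects of cloning, in either line, and of dormancy cannot be told apart with 1 clonal line on each side.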

Other observations

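A few genes of the neighbouring lists, picked here after their values were seen, lay near 2-fold without being called. In proline and alanine synthesis, *Gpt2*, a mitochondrial alanine transaminase, had a log2 ratio with a mean of -1.08, and *Aldh18a1*, which makes the precursor that *Pycr1* acts on, had a mean of -0.88. In methionine metabolism, *Ahcy*, which clears S-adenosylhomocysteine, gave 0.95 and 1.10, and *Mtap*, which salvages methionine from polyamine synthesis, had a mean of 0.92. Among the regulators, *Myc* gave -0.98 and -1.17, with probes from -1.07 to -0.25.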
